A study of Mus musculus with 8 samples.

Results

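The insulin-like growth factor 1 (IGF1) axis and its binding proteins were followed through 9 genes, Igf1, Igf1r, Ghr and Igfbp2 to Igfbp7, in the distal trachea and carina of old and young mice. A probe set, the group of array probes that reads 1 transcript, was counted as a member when its only gene symbol was 1 of these names. This gave 27 of the 45037 non-control probe sets on the array, and 9 of the 18193 genes with a probe set of their own. The old group held 4 females of 14 months and the young group 4 females of 2 months, all of the inbred strain C57Bl/6, with no transgene or treatment in the labels. Each mouse gave 1 Affymetrix Mouse Genome 430 2.0 array, and mice are called here by the numbers in their labels, 1, 2, 5 and 6 for the old group and 3, 4, 7 and 8 for the young. The question was how the level of each transcript differed between the ages in whole tissue.

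Growth hormone from the pituitary acts on the growth hormone receptor (Ghr), which signals through JAK2 and STAT5 and is a main inducer of Igf1. IGF1 is also made locally, largely by mesenchymal cells, and acts on neighbouring cells through the tyrosine kinase receptor IGF1R, which feeds the PI3K and AKT and the MAPK pathways. The IGF-binding proteins hold most extracellular IGF, prolong its life and release it when they are cleaved by proteases. IGFBP6 prefers IGF2 over IGF1, and IGFBP7 is a more distant relative that binds IGF weakly.

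Igf1 was the member with the lowest old-to-young ratio, and all 4 of its probe sets lay lower in every old mouse than in any young mouse. The old mice had 52.2% to 62.3% of the young signal. Beyond Igf1, the brightest probe sets of Ghr, Igfbp6 and Igfbp7 were also below the young range in every old mouse, by smaller amounts, whereas both Igfbp3 and all 6 Igfbp4 probe sets had higher means in old mice with ages that overlapped. No member passed an adjusted p of 0.05 over all probe sets, in either direction. At that threshold 0.0178% of all probe sets were lower and 0.0533% higher in old mice. The RNA came from whole airway wall, in which fewer cells of a type and less RNA per cell cannot be told apart.

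The sequences just upstream of these 4 genes are shown because every old mouse lay below every young mouse for their brightest probe sets. Each is the 250 bases before an annotated start in RefSeq on GRCm38.p6, read 5′ to 3′ on the strand of the gene, with capitals marking a match to a searched motif. Both strands were searched, and no match overlapped another. The TATA box was spelled TATAAA, which reads TTTATA on the opposite strand. For the CCAAT box the letters were CCAAT, which read ATTGG on the opposite strand. A STAT-type site was taken as TTCNNNGAA. The E-box was taken as CACGTG.
Igf1, chr10:87860861-87861110, plus strand: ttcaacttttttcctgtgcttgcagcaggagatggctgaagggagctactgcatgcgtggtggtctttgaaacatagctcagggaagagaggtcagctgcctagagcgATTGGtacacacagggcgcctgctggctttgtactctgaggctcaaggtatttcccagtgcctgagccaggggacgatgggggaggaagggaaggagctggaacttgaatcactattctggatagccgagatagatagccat
Ghr, chr15:3581843-3582092, minus strand: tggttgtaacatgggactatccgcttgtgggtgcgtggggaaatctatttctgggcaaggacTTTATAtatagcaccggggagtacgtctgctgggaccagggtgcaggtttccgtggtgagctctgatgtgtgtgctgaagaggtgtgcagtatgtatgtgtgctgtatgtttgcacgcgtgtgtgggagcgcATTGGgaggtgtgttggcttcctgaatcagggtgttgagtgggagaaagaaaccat
Ghr, chr15:3583353-3583602, minus strand: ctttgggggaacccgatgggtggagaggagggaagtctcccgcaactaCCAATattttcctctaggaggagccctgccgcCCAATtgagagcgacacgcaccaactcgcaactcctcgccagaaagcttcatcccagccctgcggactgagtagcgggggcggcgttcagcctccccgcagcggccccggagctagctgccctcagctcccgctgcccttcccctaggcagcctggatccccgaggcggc
Igfbp6, chr15:102143936-102144185, plus strand: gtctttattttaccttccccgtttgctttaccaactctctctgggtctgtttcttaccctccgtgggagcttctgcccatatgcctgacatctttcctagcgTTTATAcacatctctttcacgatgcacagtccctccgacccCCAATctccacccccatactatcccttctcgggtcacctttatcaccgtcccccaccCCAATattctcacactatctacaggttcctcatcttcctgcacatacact
Igfbp7, chr5:77408046-77408295, minus strand: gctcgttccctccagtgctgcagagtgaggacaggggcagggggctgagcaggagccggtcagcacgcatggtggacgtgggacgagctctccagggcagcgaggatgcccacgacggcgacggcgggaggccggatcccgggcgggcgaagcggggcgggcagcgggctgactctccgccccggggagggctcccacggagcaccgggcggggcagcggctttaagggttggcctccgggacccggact
All 9 members had at least 1 such window and 11 windows were searched. The STAT-type letters were in 0 of the 11, against 7.02% of the 32841 windows of all genes, and CCAAT was in 4 of the 11, against 33.9%. TATAAA was in 3 of the 11 (12.4% of all windows) and CACGTG in 1, a window of Igfbp2 (6.02%). Base composition differed among the printed windows, from 49.6% G and C upstream of Igfbp6 to 74.0% upstream of Igfbp7, with a median of 52.4% over all windows. The Igf1 window held 5 CpG and the Igfbp7 window 26, where the median window held 6. These matches describe letters in a short window and say nothing of binding.

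Igf1 encodes the ligand itself. On its brightest probe set (1437401_at), the signal was 1394, 1009, 954 and 1016 in old mice 1, 2, 5 and 6, and 1862, 2197, 2153 and 1660.5 in young mice 3, 4, 7 and 8. The old mouse nearest to the young range was mouse 1, and the remaining 3 old mice lay close together. The difference was -0.86 on the log2 scale (SE 0.15, 95% interval -1.22 to -0.50), which put the old mean at 55.2% of the young mean (interval 43.0% to 70.9%). The limma test gave an adjusted p of 0.126 over all probe sets, and this probe set ranked 240 by p.

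The other Igf1 probe sets had the same arrangement. 1434413_at gave 962, 774, 844 and 853 in the old mice and 1275, 1584, 1500.5 and 1300.3 in the young mice, a log2 difference of -0.72 (SE 0.11, limma adjusted p = 0.0888). It had the smallest p of the 27 member probe sets and ranked 132 in the table. 1419519_at gave 499, 553, 410.4 and 412 against 675, 806, 827 and 688 (log2 difference -0.68, SE 0.13, limma adjusted p = 0.146). 1452014_a_at, the dimmest, gave 345, 319, 227 and 296 against 526, 617, 643 and 479 (log2 difference -0.94, SE 0.16, limma adjusted p = 0.110). In each of the 4, the highest old mouse was below the lowest young mouse, for which an exact permutation test over the 70 divisions of 8 mice gives a two-sided p of 0.0286, the smallest that 4 against 4 allows. The probe sets read 1 transcript in the same 8 mice and are not separate evidence.

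**Figure D1:**
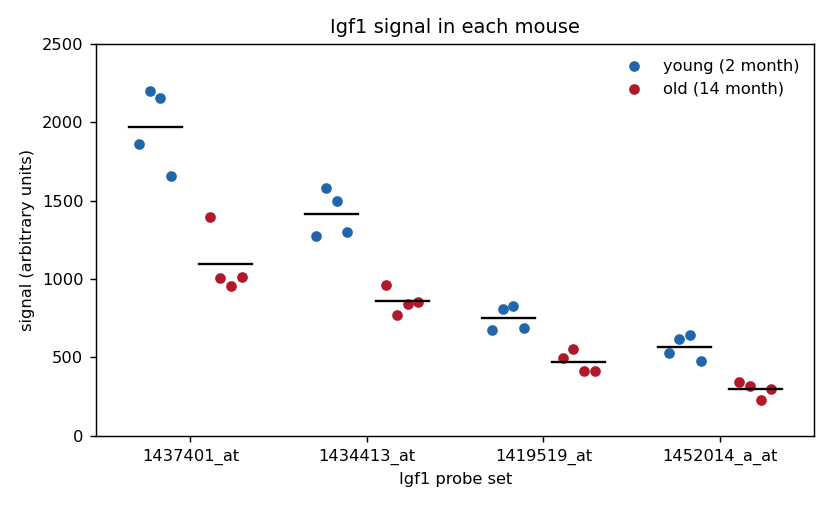
Signal (arbitrary units) of the 4 Igf1 probe sets, with 1 point per mouse for the 4 young and 4 old mice and a line at each group mean. On every probe set the 4 old points lie below the 4 young points, and on 1437401_at old mouse 1 (1394) stands above the other old mice.

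With genes in place of probe sets, each taken by its brightest probe set, Igf1 had a limma adjusted p of 0.0635 over 18193 genes. The call on Igf1 depended on which probe sets were tested and on the variance model. Among the 22518 brighter probe sets, all 4 Igf1 probe sets passed, with limma adjusted p between 0.0105 and 0.0254, where 1.01% of those probe sets were lower in old mice, and the gene passed among the brighter genes (adjusted p = 0.0116, where 1.73% of genes were lower). With a trended and robust prior over the whole table they also passed, with adjusted p between 0.00446 and 0.0195, where 0.535% were lower. Leaving out 1 mouse at a time, the log2 difference of 1437401_at stayed between -0.98 and -0.80.

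Igf1os, the antisense gene of this locus, has a probe set of its own. Its signal ran from 2.94 to 29.7 in old mice and from 6.35 to 28.8 in young mice, among the dim signals of the array, and the ages overlapped.

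Markers of the labelled tissue were read in all 8 mice, with ciliated markers summing to 11545.5 to 15267 and cartilage markers to 9662 to 18765. The summed signal of the 6 fibroblast markers lay below the young range in old mice, from 56902 to 63880.4 against 65951 to 73537. Within that list only the collagen genes separated the ages. Col1a1 had a log2 difference of -1.58 (limma adjusted p = 0.0870 over all genes) and Col1a2 fell by 0.58 on the log2 scale (adjusted p = 0.0445). The markers that are not collagens had overlapping ages, with log2 differences of -0.06 for Pdgfra, -0.07 for Dcn, 0.01 for Lum and -0.09 for Dpt. Summed smooth muscle markers (5 of 5 measured) overlapped at 64352 to 74285 in old and 72601 to 84223 in young mice. Myh11 and Tagln, 2 of the 5, were below the young range.

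Macrophages are another known source of Igf1. Their 6 markers summed to 10373 to 12376 in old mice and 8960.3 to 10099 in young mice, so the sum stood higher in every old mouse. Of the 6, Adgre1, Cd68, C1qa and C1qb were above the young range in every old mouse, whereas Csf1r and Mrc1 overlapped, and none passed an adjusted p of 0.05. Summed B lineage markers (5 of 6 measured) ranged from 4275 to 15053 in old mice and from 289.5 to 931 in young mice. Jchain made up most of this sum in old mice (3735 to 14016, against 127 to 730 in young mice). Cd79b, Ms4a1 and Pou2af1 were also above the young range in every old mouse, whereas Cd79a overlapped. The share of Igf1 that each cell type contributed was not tested. The ratio of 3′ to 5′ signal for the control transcript Actb, a reading of RNA integrity, was 1.134 to 1.302 in old and 1.307 to 1.463 in young mice and did not overlap, while that of Gapdh overlapped. Its part in the Igf1 difference was not tested.

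**Figure D2:**
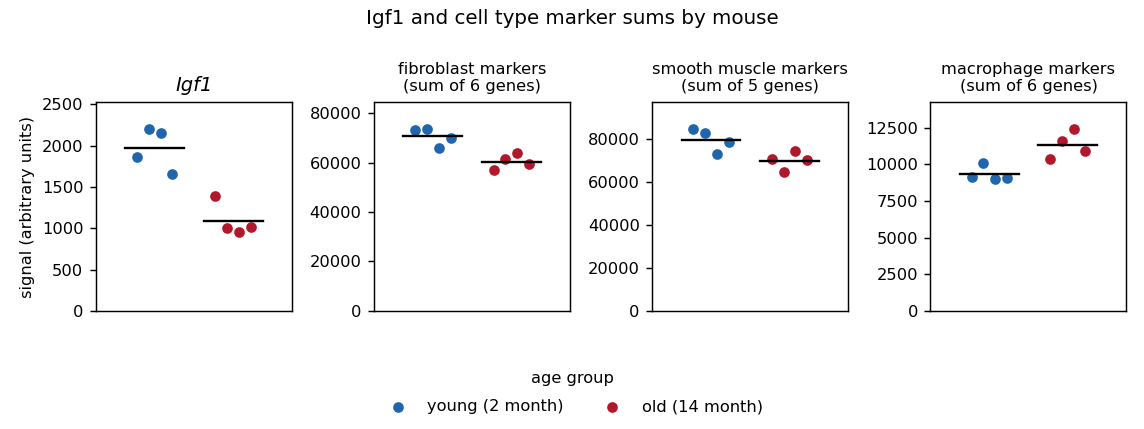
Signal (arbitrary units) by mouse and age group for the brightest Igf1 probe set and for the summed fibroblast (6 genes), smooth muscle (5 genes) and macrophage (6 genes) markers, with a line at each group mean. Igf1 and the fibroblast sum lie lower in all 4 old mice, the smooth muscle sums overlap, and the macrophage sum lies higher in all 4 old mice.

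Ghr, the receptor for growth hormone, was read by 3 probe sets, of which 1 separated the ages. The brightest (1417962_s_at) gave 3086, 3204, 2943 and 3435 in old mice 1, 2, 5 and 6 and 3587, 3988, 4257 and 4329 in young mice 3, 4, 7 and 8. All 4 old mice lay below the young mice, and the gap between old mouse 6 and young mouse 3 was narrow. The log2 difference was -0.35 (SE 0.10, 95% interval -0.58 to -0.12), or 78.5% of the young mean, with a limma adjusted p of 0.259. The suffix of this probe set means that its probes can match more than 1 transcript.

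The other Ghr probe sets also had lower means in old mice, but their ages overlapped. For 1451501_a_at the old mice gave 733, 1036, 609 and 943 and the young mice 861, 939, 1198 and 929 (log2 difference -0.26, 95% interval -0.71 to 0.19). The dim 1451871_a_at ran from 76.1 to 119 in old and from 105 to 149 in young mice (log2 difference -0.28, 95% interval -0.71 to 0.15). At the level of genes, Ghr passed with the trended and robust prior (limma adjusted p = 0.0323, where 1.19% of genes were lower) and did not pass with the constant prior (adjusted p = 0.137). Over all probe sets, 1417962_s_at did not pass with the trended and robust prior (limma adjusted p = 0.0506).

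Igf1r, the receptor for the ligand, was read by 5 probe sets. The brightest (1452982_at) gave 2044, 1777, 2604 and 2230.4 in old and 2834, 2785, 2144 and 2395 in young mice, with a log2 difference of -0.24 (95% interval -0.58 to 0.11, limma adjusted p = 0.610). Old mice 5 and 6 lay inside the young range on this probe set. On 1426565_at the old mice gave 509, 469, 617 and 568 and the young mice 865, 685, 667 and 749, without overlap (log2 difference -0.46, SE 0.13, limma adjusted p = 0.261). The remaining 3 Igf1r probe sets overlapped, with log2 differences of -0.16, -0.05 and 0.10, so the separation at Igf1r was seen on 1 of its 5 probe sets. The interval of the brightest leaves room for an old mean between 66.7% and 108% of the young mean.

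Igfbp2 encodes a binding protein of many fetal and adult tissues, and it varied more between mice than any other member. Its single probe set (1454159_a_at) gave 1903, 395, 400.2 and 383 in old mice 1, 2, 5 and 6 and 1221, 1961, 704 and 502 in young mice 3, 4, 7 and 8. Old mice 2, 5 and 6 lay within a narrow band below all young mice, whereas old mouse 1 was close to the highest young mouse. The log2 difference was -0.72 with an SE of 0.64 (95% interval -2.21 to 0.77, limma adjusted p = 0.728). Without old mouse 1 it was -1.29, still short of the threshold. Over all genes, the limma adjusted p was 0.314 without that mouse and 0.666 with all 8 mice. Without young mouse 4 the log2 difference was -0.38.

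Igfbp3 encodes the main carrier of circulating IGF. Its brighter probe set (1423062_at) gave 1762, 1914, 1602 and 1414 in old and 1328, 1496, 1169 and 1446 in young mice. Old mice 1, 2 and 5 lay above the young range and old mouse 6 lay within it. The log2 difference was 0.30 (SE 0.13, 95% interval -0.0031 to 0.60, limma adjusted p = 0.454). The second probe set (1458268_s_at) had old values of 1151, 1092, 984 and 829.7 and young values of 801, 891, 883 and 861 (log2 difference 0.23, limma adjusted p = 0.531), and here too old mouse 6 alone was within the young range.

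Igfbp4, whose product is cleaved by the protease PAPPA to release IGF, was read by 6 probe sets, all with a higher mean in old mice and overlapping ages. The brightest (1437405_a_at) gave 9106, 8856, 10379.8 and 9768 in old and 9369.8, 8526, 7843 and 8168 in young mice (log2 difference 0.17, 95% interval -0.05 to 0.39, limma adjusted p = 0.565). The dimmest (1421991_a_at) had the highest log2 difference of any member probe set, 0.48 (SE 0.16, limma adjusted p = 0.339). It gave 395, 283, 411 and 471 in the old and 285, 259.5, 294 and 266 in the young mice, and old mouse 2 alone was within the young range. The other 4 probe sets had log2 differences between 0.05 and 0.22.

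Igfbp5, which binds extracellular matrix, was at nearly the same level at both ages. Its brightest probe set (1452114_s_at) gave 12342, 13001, 13946 and 14116 in old and 14587, 14671.5, 12200.5 and 12624 in young mice, a log2 difference of -0.02 with a 95% interval of -0.25 to 0.22. The old mean was thus between 84.2% and 116% of the young mean. The other probe set (1422313_a_at) had a log2 difference of -0.13 (95% interval -0.40 to 0.15). Igfbp2 and Igfbp5 are neighbouring protein-coding genes in the RefSeq annotation, and Igfbp3 neighbours Igfbp1, whose probe set was dim and overlapped between the ages (25.2 to 90.4 in old and 28.4 to 68.6 in young mice).

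Igfbp6 had the tightest old group of all members. Its probe set (1417933_at) gave 2729, 2716, 2750.0 and 2739 in the old mice and 3513, 3023, 3579.7 and 3019.6 in the young mice. The old mice had an SD of 14.4 around 2734 and the young mice an SD of 304 around 3284. All old mice lay below the young mice, with a log2 difference of -0.26 (SE 0.09, 95% interval -0.47 to -0.05, limma adjusted p = 0.358).

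Igfbp7 was separated on 2 of its 3 probe sets. The brightest (1423584_at) gave 14313, 14786, 14254 and 15187 in old and 16773.5, 16569.6, 17234 and 16226 in young mice, so the old mean was 87.6% of the young mean (log2 difference -0.19, SE 0.07, limma adjusted p = 0.394). On 1423585_at the old mice gave 461, 388, 419 and 349 and the young mice 467, 548, 534 and 486, where old mouse 1 and young mouse 3 nearly met (log2 difference -0.34, SE 0.11, limma adjusted p = 0.340). The third probe set was dim, between 15.8 and 30.4 in all mice, and overlapped. At the level of genes, Igfbp7 had a limma adjusted p of 0.207, which became 0.0472 with a floor of 32 under all signals (0.599% of genes lower) and 0.0346 with a floor of 64 (0.654% lower), with the log2 difference at -0.19 in each. Over all probe sets, 1423584_at passed with neither floor (limma adjusted p = 0.0626 with 32 and 0.0575 with 64).

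**Figure D3:**
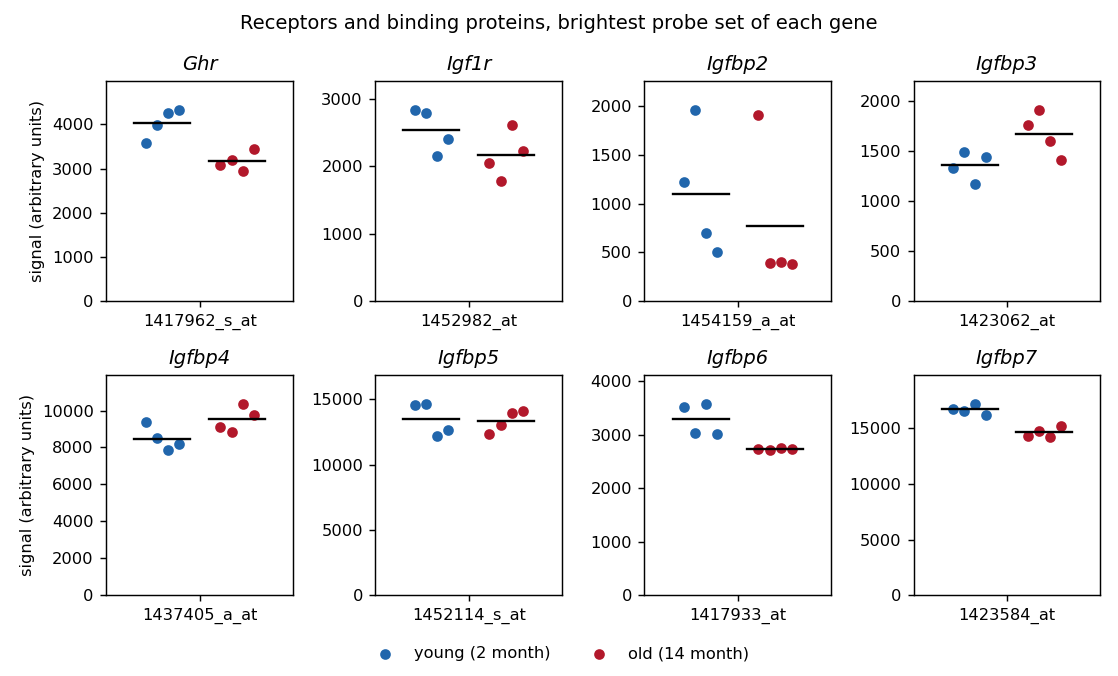
Signal (arbitrary units) of the brightest probe set of each receptor and binding protein, with 1 point per mouse for the 4 young and 4 old mice and a line at each group mean. Ghr, Igfbp6 and Igfbp7 separate the ages, Igfbp2 is spread widely with old mouse 1 at 1903, and Igf1r, Igfbp3, Igfbp4 and Igfbp5 overlap.

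Over the 27 member probe sets, the median log2 difference was -0.19, against -0.0062 over all 45037, with 18 below 0 and 9 above. Every old mouse lay below every young mouse on 9 of the 27, where 3.75% of all probe sets did so, and above on 0 of the 27, where 4.05% did. These 9 were the 4 of Igf1, 2 of Igfbp7 and 1 each of Igf1r, Ghr and Igfbp6. Probe sets of 1 gene are not separate evidence. By brightest probe set, 4 of the 9 member genes lay below, where 5.11% of all genes did, and 0 above (5.02%). The members were chosen with earlier results of these data known, so these counts only describe them. An unadjusted limma p under 0.05 was reached by the same 9 probe sets in the lower direction (5.41% of all probe sets). In the higher direction 1 member probe set reached it, 1421991_a_at of Igfbp4 (5.76% of all probe sets). None differed by more than 2-fold with an unadjusted p under 0.05, the fold that the methods of the study used, whereas 0.802% of all probe sets were lower and 1.19% higher by that rule. With a fold of 1.5 there were 4 lower, all of Igf1 (1.86% of all probe sets), and 0 higher (2.37%).

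**Figure D4:**
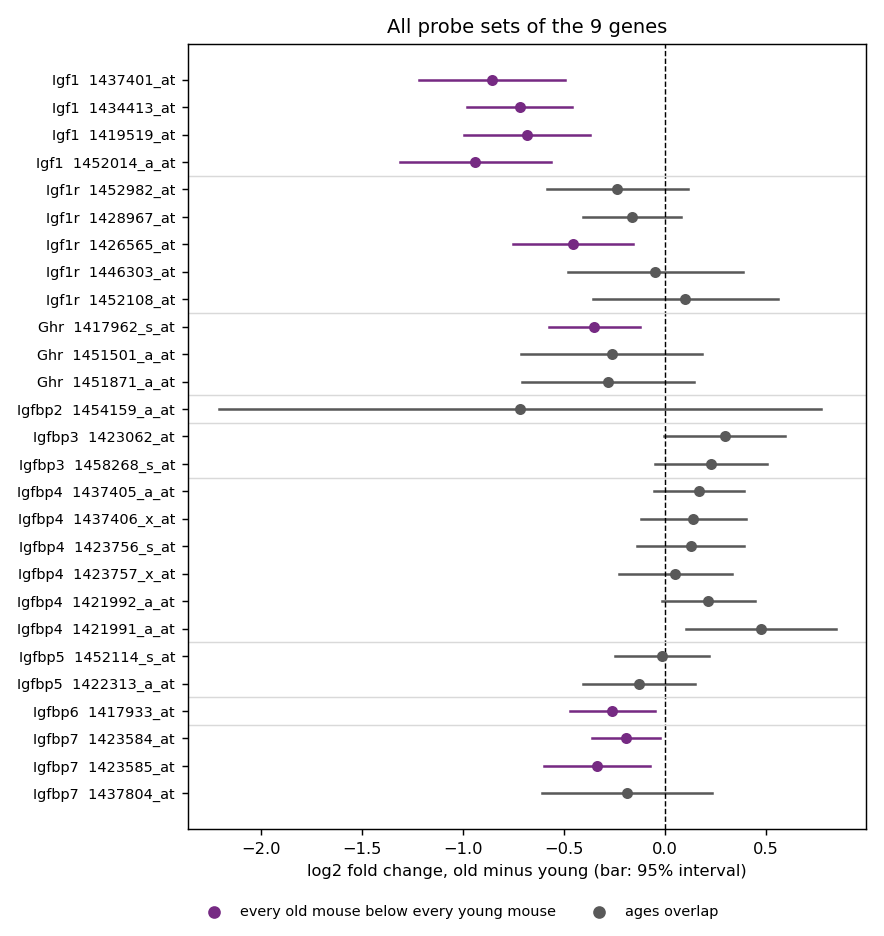
Log2 fold change, old minus young, of the 27 member probe sets with 95% intervals from the limma fit. The 4 Igf1 probe sets lie between -0.94 and -0.68 with intervals that do not reach 0, the single Igfbp2 interval is the widest (-2.21 to 0.77), and the 6 Igfbp4 values are all above 0.

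Each further probe set of a gene was also set against the brightest probe set of that gene within each array. For 7 genes with more than 1 probe set there were 18 such pairs, and none separated the ages (smallest exact two-sided permutation p = 0.0571, adjusted p = 0.686 over the 18 pairs). No pair of probe sets of 1 member was thus shown to differ in its response to age, at this number of mice.

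The wider pathway was described with a list of 75 genes that includes the members, of which 65 had a probe set of their own. No gene of the list passed an adjusted p of 0.05 over all genes (0.368% of all genes were higher and 0.181% lower at that threshold). At an unadjusted p under 0.05 there were 3 higher (7.31% of all genes) and 9 lower (7.28%). The median log2 difference was -0.04 over the 65 genes, against -0.0047 over all genes, with 39 below 0 and 26 above. Every old mouse lay below every young mouse for 6 of the 65, where 5.11% of genes did, and above for 1, where 5.02% did. The 6 were the members Igf1, Ghr, Igfbp6 and Igfbp7 with the adaptors Gab1 and Grb10.

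The gene above was Socs3, an inhibitor of JAK and STAT signaling that growth hormone and cytokines induce. Its signal was 669.8, 653, 505 and 651 in the old mice and 397, 474, 359 and 250.03 in the young mice. The log2 difference was 0.77 (SE 0.20, 95% interval 0.31 to 1.24, limma adjusted p = 0.148), and it passed among the brighter genes (adjusted p = 0.0477, where 2.00% of genes were higher) and with the trended and robust prior (adjusted p = 0.0394, where 1.48% were higher). The other genes of growth hormone signaling overlapped between the ages, among them Jak2 (log2 difference -0.08), Stat5a (0.11), Stat5b (0.19) and Socs2 (-0.04).

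Igf2, the second ligand, had a log2 difference of 0.34 (SE 0.14, limma adjusted p = 0.338). Its signal was 1107, 969, 1337 and 1089 in old and 1104, 797, 782 and 889.5 in young mice, and old mice 2 and 6 lay within the young range. Igf2r, which clears IGF2, and Insr, the insulin receptor, overlapped with log2 differences of -0.10 and -0.08.

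Among the adaptors that link IGF1R to its pathways, Gab1 gave 802, 884, 866 and 859 in old and 919.8, 1095, 1114 and 1248 in young mice (log2 difference -0.35, SE 0.10, limma adjusted p = 0.174). Grb10, an adaptor that restrains the receptor, gave 1627, 1622, 1380.4 and 1355 against 1680.3, 1686, 1705 and 1998 (log2 difference -0.24, SE 0.10, limma adjusted p = 0.319). Both separated the ages. Irs1, the docking protein for PI3K, had a log2 difference of -0.38 (limma adjusted p = 0.297) and Grb2 of 0.16 (adjusted p = 0.454), with overlap. Of the genes further downstream, the transcription factor Foxo4 had a log2 difference of -0.29 (limma adjusted p = 0.286) and the mTOR subunit Rictor of 0.16 (adjusted p = 0.407), both with overlap.

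**Figure D5:**
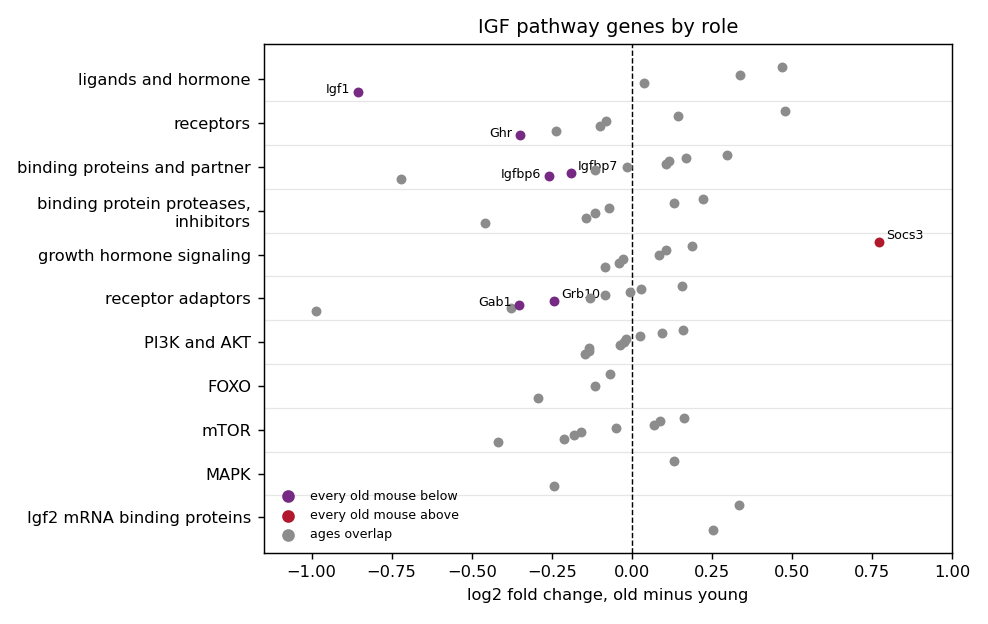
Log2 fold change, old minus young, of the 65 measured IGF pathway genes, 1 point per gene by its brightest probe set, in rows by role. Purple points (6 genes) have every old mouse below every young mouse, the red point (Socs3, 0.77) has every old mouse above, and Igf1 (-0.86) is the lowest of the coloured points.

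The proteases and inhibitors that set the release of IGF from its binding proteins were all 6 measured, and none separated the ages. Their log2 differences ran from -0.46, for the protease gene Pappa2, to 0.22. Of the 9 measured genes of the PI3K and AKT group, 6 had a negative and 3 a positive difference, between -0.15 and 0.16.

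Within an age, mice with a higher signal of 1 member were compared with the other members after the age mean had been subtracted. Over the 8 mice, the brightest probe sets of Igf1r and Igfbp4 had the highest Pearson correlation (0.93), followed by Igf1 and Igfbp2 (0.85), and Ghr and Igfbp4 had the lowest (-0.67). Old mouse 1, which stood apart on Igfbp2, was also the highest old mouse on the brightest Igf1 probe set. The points share their arrays and their scaling, and these values describe 8 mice.

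Likeness to each member over the same 8 mice was highest, among 11863 brighter genes, for Evi5 (0.96) and Ufsp2 (0.95) with Igf1, Emilin2 and Ptpn23 (both 0.99) with Igf1r, and Nt5c3 (0.99) and Stag2 (0.97) with Ghr. For the binding proteins these were Tssc4 (0.98) and Cald1 (0.97) with Igfbp2, Cpxm2 (0.98) and Tspyl2 (0.97) with Igfbp3, and Shkbp1 and Cadm4 (both 0.98) with Igfbp4. Mroh1 (0.99) and Misp (0.98) came first with Igfbp5, Ap4m1 (0.98) and Sft2d3 (0.96) with Igfbp6, and Pi4k2b (0.98) and Ccdc30 (0.97) with Igfbp7. Between 23 and 107 genes exceeded 0.9 for each member, so the first places are not set apart from many others.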

How the data were processed

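Distal trachea and carina RNA of 8 mice was measured on 1 array each. The deposited values are intensity values, with a linear signal for each probe set. The methods of the study name robust multichip analysis in Partek, but each array has the same trimmed mean of 500.002 without a log scale, which is not the usual form of that method's output, so how the authors made the values is not settled here. Low signals and any background subtraction therefore have unknown error. The labels give groups and mouse numbers. No batch is given.

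Signals were converted to log2 without a floor. The 64 control probe sets were left out, and 45037 were fitted with limma 3.58.1 in R 4.3.3 (lmFit, eBayes, two-sided, old against young), with Benjamini-Hochberg adjustment over the whole table. In the gene fit, each of 18193 genes was read by its brightest probe set. Of the probe sets, 34945 had 1 gene symbol in the platform table, 932 several and 9160 none. All 9 member symbols matched RefSeq by gene ID. Exact tests permuted the 8 mice. Apart from the choice of the brightest probe set and the marker sums, signals of different probe sets were not compared as levels. A marker sum adds raw signals, so its brightest genes weigh most. The number of arrays limits the precision. The limma p-values set the difference between the ages against the spread between mice. Median signals of the arrays were 150.0 to 161.

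The members and gene lists were chosen with earlier results of these data known. Every member was named with all its probe sets. Of the other pathway genes, those passing the threshold were to be named, with the 4 higher and 4 lower of smallest p. For each member the 2 genes most like it were named. Igf1os, Igfbp1 and further pathway genes were added after their values were seen. Marker lists not compared in the report (cartilage, endothelium, ciliated, secretory, fat, skeletal muscle and thyroid) had summed signals that overlapped between the ages. The airway basal and T cell sums were higher in every old mouse. Within the basal list Krt5, Krt14 and Krt15, the brightest, lay above the young range, whereas Trp63 and Ngfr overlapped. Of the T cell markers Cd3d and Cd3g lay above it, whereas Cd3e and Cd2 overlapped. Scripts were tested on simulated data. Normalization, centring, floor, filter, variance model, weights, block, probe set choice and left-out mice were varied. Promoter windows came from RefSeq on GRCm38.p6. The files name no build, so no array coordinates were used.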

Additional observations from a re-analysis of the deposited data

Results flagged for a closer look

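In 4 of the 54 groups of 4 mice examined (27 probe sets at 2 ages), the highest or lowest mouse was set apart from the other mice of its age by a gap that took up most of the group's range (between 0.860 and 0.989 of it). Chance alone sets apart about 1 in 20 groups. All 4 were among the old mice. Old mouse 1 had an Igfbp2 signal of 1903 (1454159_a_at), where the next old mouse had 400.2. The same mouse had an Igf1 signal of 1394 (1437401_at), where the next had 1016, and it still lay below all young mice. Old mouse 5 had a Ghr signal of 76.1 on the dim 1451871_a_at, where the next had 113. Old mouse 2 had an Igfbp7 signal of 15.8 on the dim 1437804_at, where the next had 22.4.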

How the results depend on the processing

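No member probe set was called lower with quantile normalization, median centring, a floor of 64 or array weights, where 0.0155%, 0.01998%, 0.133% and 0.0178% of all probe sets were. None was called with mouse numbers as a block, an ordinary analysis of variance or any 1 mouse left out, but 0 of all 45037 probe sets were lower under the block, that analysis of variance and 5 of the 8 left-out mice, so those settings say nothing of the members. With a floor of 32, 1 was called lower (Igf1 1434413_at, adjusted p = 0.0458), where 0.224% of all probe sets were. Testing the brighter probe sets called 4 lower (1.01% of those probe sets). The trended and robust prior also called 4 (0.535% of all probe sets). So did a fold above 1.5 with an unadjusted p under 0.05 (1.86%). All of these were of Igf1. Among pathway genes, floors of 32 and 64 each called 1 lower (Igfbp7), where 0.599% and 0.654% of all genes were lower. Among the brighter genes 1 was called lower (Igf1), where 1.73% were. The trended prior called 2 lower (Igf1 and Ghr), where 1.19% of all genes were. In the higher direction, the brighter genes and the trended prior each gave 1 call (Socs3), where 2.00% and 1.48% of genes were higher. Pathway genes with every old mouse above every young mouse numbered 2 with quantile normalization, where 5.05% of all genes did so. They also numbered 2 when probe sets were averaged within a gene, where 4.87% of all genes did so. That average gave a median log2 difference of -0.084 over the pathway genes.

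Leaving out 1 mouse at a time gave 0 to 2 member probe sets with every old mouse above (2 without old mouse 2 or 6, 1 without young mouse 3) and 9 to 10 with every old mouse below, where 5.52% to 6.63% of all probe sets lay above and 5.14% to 6.93% below. The pathway counts were 1 to 5 above (5 without old mouse 6, 4 without young mouse 3, 3 without young mouse 8, 2 without old mouse 2 or 5) and 6 to 11 below (11 without old mouse 1 or young mouse 3), where 6.56% to 7.72% of all genes lay above and 6.59% to 8.18% below. Separation is easier to reach with 7 mice than with 8. The pathway median log2 difference was -0.07 to -0.02. Log2 differences that changed sign were those of Igfbp5 1452114_s_at (-0.063 to 0.026, the same for the gene Igfbp5), Igf1r 1446303_at (-0.136 to 0.050) and Igfbp4 1423757_x_at (-0.014 to 0.117), none of which passed a threshold. No paired analysis was possible because old and young mice share no number. With 4 mice a group, a difference of the size seen at Igfbp2 could not be told from the spread between mice. No detection calls were used, so how far the dim Igfbp7, Ghr and Igfbp1 probe sets stood above background is not known.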
